A study of Mus musculus with 4 samples.

Results

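The response of SVEC cells, a mouse endothelial cell line grown in culture, to bacterial lipopolysaccharide (LPS) was compared between 24 h and 4 h of exposure. All 4 of the series' 4 arrays enter this comparison. On each array, RNA of LPS-treated cells and RNA of control cells carried the 2 dyes Cy5 and Cy3. At each time LPS RNA was in Cy5 on 1 array and in Cy3 on the other, the dye reversal. A dose of 50 ng/ml is stated for 3 of the 4 arrays and no dose for the 4 h dye reversal. The values cover 11138 genes.

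Every value is a log2 ratio of LPS over control, on which 1 is 2-fold, and pairs of values are given with the array that had LPS in Cy5 first. The difference is the mean of the 24 h pair minus the mean of the 4 h pair. Its error is the SD of the 2 differences taken within a dye orientation (n = 2). No separate cultures are named, so each time counts as 1 pair of RNAs measured with both dye orientations. The SD is therefore technical, and no difference between the times has a biological replicate or a test. The labels do not say whether the control cells were kept for the same time or whether 1 control RNA served both times, so a change in LPS-treated cells and one in control cells cannot be told apart. LPS over control is the likely direction, read from the dyes in the labels, and all signs would turn under the opposite convention.

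LPS is sensed by Tlr4 with the co-receptors Cd14 and Ly96. Signalling through Myd88 reaches NF-kB and induces chemokines, adhesion molecules and inhibitors of the pathway itself. Signalling through a second branch reaches interferon regulatory factors, and the interferon that follows activates STAT proteins, which switch on antiviral genes through DNA elements known as the ISRE and the GAS. Endothelial cells line blood vessels, and after exposure to LPS they display molecules that recruit leukocytes.

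Neighbouring interferon-inducible GTPase genes with near-identical promoter letters over 95 bases from the GAS onward were in different time classes. Their windows are therefore shown first. The windows are RefSeq's (GRCm38.p6) and run from 250 bases before to 50 bases after the gene's start, in the direction of transcription. Capitals mark letters that match the ISRE, taken as GAAA, any 2 bases and GAAA again, or the GAS as TTCNNNGAA, on either strand. Igtp (chr11:58199306-58199605, plus strand) and Irgm2 (chr11:58214727-58215026, plus strand) encode immunity-related GTPases that act on vacuoles holding microbes. Ifit3 (chr19:34583279-34583578, plus strand) and Gbp2 (chr3:142620413-142620712, plus strand) were late and Rsad2 (chr12:26456403-26456702, minus strand) was high at both times, and in these last 3 windows only ISRE letters are marked.
Igtp: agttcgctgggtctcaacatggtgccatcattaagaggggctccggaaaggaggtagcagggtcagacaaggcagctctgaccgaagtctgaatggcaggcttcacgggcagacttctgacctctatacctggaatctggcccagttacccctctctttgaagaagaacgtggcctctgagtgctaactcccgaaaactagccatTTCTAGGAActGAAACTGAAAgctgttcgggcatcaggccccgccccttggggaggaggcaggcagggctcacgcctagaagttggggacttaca
Irgm2: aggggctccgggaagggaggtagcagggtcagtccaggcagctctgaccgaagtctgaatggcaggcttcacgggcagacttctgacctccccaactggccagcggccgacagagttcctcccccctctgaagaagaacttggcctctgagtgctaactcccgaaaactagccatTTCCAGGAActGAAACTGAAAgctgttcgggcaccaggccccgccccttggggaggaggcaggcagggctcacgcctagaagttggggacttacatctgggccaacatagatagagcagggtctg
Ifit3: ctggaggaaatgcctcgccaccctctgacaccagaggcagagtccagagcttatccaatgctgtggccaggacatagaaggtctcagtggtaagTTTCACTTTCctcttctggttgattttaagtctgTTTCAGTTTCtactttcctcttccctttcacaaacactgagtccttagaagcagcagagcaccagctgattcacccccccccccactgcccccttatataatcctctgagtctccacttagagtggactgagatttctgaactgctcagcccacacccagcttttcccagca
Gbp2: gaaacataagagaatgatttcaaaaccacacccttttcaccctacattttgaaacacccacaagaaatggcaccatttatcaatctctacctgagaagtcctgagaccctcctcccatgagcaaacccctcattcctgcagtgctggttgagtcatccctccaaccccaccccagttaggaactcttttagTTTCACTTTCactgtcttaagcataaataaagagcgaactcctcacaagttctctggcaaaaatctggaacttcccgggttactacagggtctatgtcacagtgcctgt
Rsad2: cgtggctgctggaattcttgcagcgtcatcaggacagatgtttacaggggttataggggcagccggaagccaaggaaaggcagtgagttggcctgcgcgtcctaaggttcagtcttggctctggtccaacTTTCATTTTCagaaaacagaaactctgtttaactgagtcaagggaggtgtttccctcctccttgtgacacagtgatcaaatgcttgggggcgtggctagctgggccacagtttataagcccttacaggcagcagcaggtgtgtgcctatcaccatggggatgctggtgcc

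From the first GAS letter onward, 93 of 95 bases of Igtp and Irgm2 were the same, and in both genes 2 bases separate the GAS from the ISRE. The letters before the GAS were not compared. The ISRE letters begin 34 bases before the start of Igtp and 64 bases before that of Irgm2. Windows were matched to 8805 of the 11138 measured genes, and 3.85% of these held the ISRE letters. Of the 16 interferon genes described below as late or persistent, 13 had a window and 8 of them (61.5%) held the ISRE letters. Of 37 genes of the same lists in no time class, 13 (35.1%) held them. GAS letters were in 5 of the 13 windows (38.5%) and in 8.53% of all measured genes with a window. They were also in 9 of the 37 genes in no time class (24.3%) and in 2 of 3 windows of fading genes of the same lists. In the class of genes high at both times as a whole, 8 of 37 windows (21.6%) held the ISRE letters. In the late class 4 of 61 (6.56%) did and in the fading class 19 of 588 (3.23%). Among genes that fell late 4 of 36 (11.1%) did, and among genes called in opposite ways at the 2 times 2 of 9 (22.2%). Among genes lower at 4 h that recovered it was 11 of 358 (3.07%), and among those low at both times 0 of 7. The 2 motifs shared no base in the windows shown. These are matches of letters and show no binding.

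Most genes called at 4 h were not called at 24 h. A gene counted as higher or lower at a time when its mean was at least 2-fold and each array at least 1.5-fold the same way. By that rule 973 genes (8.74%) were higher and 643 (5.77%) lower at 4 h, and 187 (1.68%) were higher and 89 (0.799%) lower at 24 h. Of the 973 genes higher at 4 h, 46 were also higher at 24 h, which is 4.73% of the 4 h genes and 24.6% of the 24 h genes. A difference counted when the means differed by at least 2-fold and both arrays of a time lay beyond both of the other. By that rule 917 genes (8.23%) were higher and 1113 (9.99%) lower at 24 h than at 4 h, 18.2% of genes in all. Centring the arrays on abundant transcripts in place of the median of all spots gave a median difference of 1.47 over all genes, and the split was then 7602 higher and 167 lower.

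Genes were put into classes over time. Late rise means higher at 24 h, not called at 4 h, and a difference upward, and it held 87 genes (0.781%). Fade means higher at 4 h, not called at 24 h, and a difference downward, and it held 719 genes (6.46%). Recovery means lower at 4 h, not called at 24 h, and a difference upward, and it held 458 genes (4.11%). Late fall, the mirror of late rise, held 42 genes (0.377%). Genes called the same way at both times were 46 persistent higher (0.413%) and 8 persistent lower (0.0718%), and 14 (0.126%) were called in opposite ways.

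**Figure D1:**
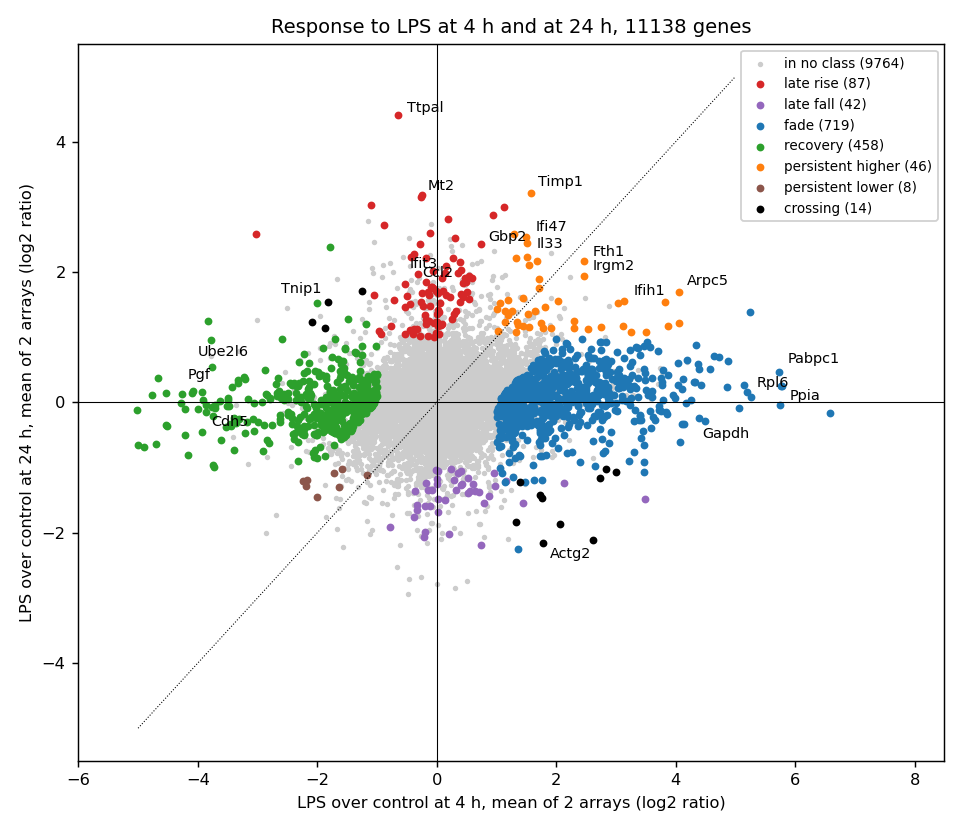
Mean log2 ratio of LPS over control at 4 h (horizontal) and at 24 h (vertical) for 11138 genes, each point 1 gene and the mean of 2 arrays, with colours for the classes and a dotted line where both times are equal. Most coloured points lie along the horizontal axis, 719 to the right (fade) and 458 to the left (recovery), while the 87 late genes lie above the origin and the 46 persistent genes at the upper right.

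The fading genes went from a median of 1.91 to 0.10. At 24 h, 271 of them were at or below 0, 357 lay between 0 and 0.5 and 91 at 0.5 or more. The recovering genes went from a median of -1.71 to -0.03, and 215 of the 458 were at or above 0 at 24 h. The late genes went from a median of -0.06 to 1.64. The persistent higher genes had medians of 1.67 and 1.41, with 27 of 46 larger at 4 h and 19 larger at 24 h.

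The arrays of the 2 times were not alike in spread, and these facts touch every count. The SD over spots was 1.44 and 1.43 at 4 h and 0.978 and 1.07 at 24 h. Across genes, which are not independent, the 2 arrays of 4 h correlated at 0.48 and those of 24 h at 0.10. The differences in the 2 dye orientations correlated at 0.37, and 64.7% of genes had a difference of the same sign in both. Scaling arrays to 1 spread or quantile normalization widens the 24 h values relative to those at 4 h, and all 87 late genes kept their class. So did 529 and 442 of the 719 fading, 323 and 352 of the 458 recovering and 39 and 35 of the 46 persistent higher genes. With the first spot of each oligonucleotide 43 of the 87 late genes kept their class, and without the 24 h array with LPS in Cy3 48 did. With arrays centred on abundant transcripts 16 of the 87 late, 119 of the 719 fading and 3 of the 46 persistent higher genes did. That centring also turned the differences of the fading genes Cxcl12, Nfkbiz, Trim25, Dusp2 and Ifi202b above 0. Leaving out an array loosens the demand on single arrays and moved several counts by more than 1.5 times. Without the 24 h array with LPS in Cy5, genes higher at 24 h than at 4 h numbered 1576 and late genes 543. Without the 24 h array with LPS in Cy3, late genes numbered 197 and persistent higher genes 141. Without the 4 h array with LPS in Cy5, recovering genes numbered 767. Without the 4 h array with LPS in Cy3, fading genes numbered 1143 and recovering genes 759.

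Interferon-inducible genes were among the late and the persistent genes. The 5 interferon lists cover interferon-inducible genes and, in 1 list of 19 measured genes, regulators and receptors of the pathway. Together they held 70 measured genes, of which 8 were late, 8 persistent higher, 5 fading and 2 recovering, and 47 were in no class. Over all genes 0.781% were late, 0.413% persistent higher, 6.46% fading and 4.11% recovering, and the 5 fading interferon genes were 7.14% of their lists. By the difference rule, 13 of the 70 (18.6%) were higher and 8 (11.4%) lower at 24 h than at 4 h. Over all genes the shares were 8.23% and 9.99%, so the share lower was near that of all genes. The median difference was 0.26, against 0.00 over all 11138 genes. The lists within this group did not move alike.

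Of the 5 lists, the GTPases had the highest median at 24 h. The 9 measured immunity-related and guanylate-binding GTPases on the list went from a median of 0.41 to one of 1.67, and 7 of 9 had a difference above 0. Their 4 h median was below the 0.72 of the antiviral sensors and the 0.83 of the small interferon-induced proteins. Gbp2, a guanylate-binding protein that assembles on microbial membranes, was at 0.72 and 0.75 at 4 h and at 2.80 and 2.05 at 24 h. Its difference was 1.69 ± 0.55, a 3.23-fold step. Gbp8, of the same family, was at 0.52 and -0.55 and then at 1.88 and 1.54, a difference of 1.73 ± 0.51. In both genes the lower 24 h array lay above both 4 h arrays, which the late class demands.

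Igtp, also known as Irgm3, was at 0.81 and 0.01 at 4 h and at 2.13 and 1.20 at 24 h, a difference of 1.26 ± 0.10. Its neighbour Irgm2 was at 2.80 and 2.14 and then at 1.87 and 2.02, a difference of -0.52 ± 0.58, and was persistent higher. Both 24 h arrays of Irgm2 were below both 4 h arrays, by less than 2-fold in the mean. The neighbours, with no protein-coding gene between them in RefSeq's order, were thus apart at 4 h and close at 24 h. Igtp left the late class without the 4 h array with LPS in Cy3 (difference 0.86) and without the 24 h array with LPS in Cy5 (0.79).

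Ifi47, another immunity-related GTPase, was high at both times, at 1.89 and 1.12 and then at 3.34 and 1.74. Its 24 h array with LPS in Cy3 was below the higher 4 h array, so its difference of 1.04 ± 0.58 was not called. Irgm1, which regulates the other GTPases of its family, was at 2.04 and 1.13 and then at 1.24 and 0.20, in no class. Iigp1 was at -1.27 and -0.72 and then at 0.25 and 0.26, a difference of 1.25 ± 0.39 that ended near 0. Gbp3 differed by 0.25 ± 0.19 and was in no class. Gbp2b, outside the list and singled out after its values were seen, was at 0.17 and -0.26 and then at 2.29 and 0.25, with its 24 h arrays too far apart for a class.

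**Figure D2:**
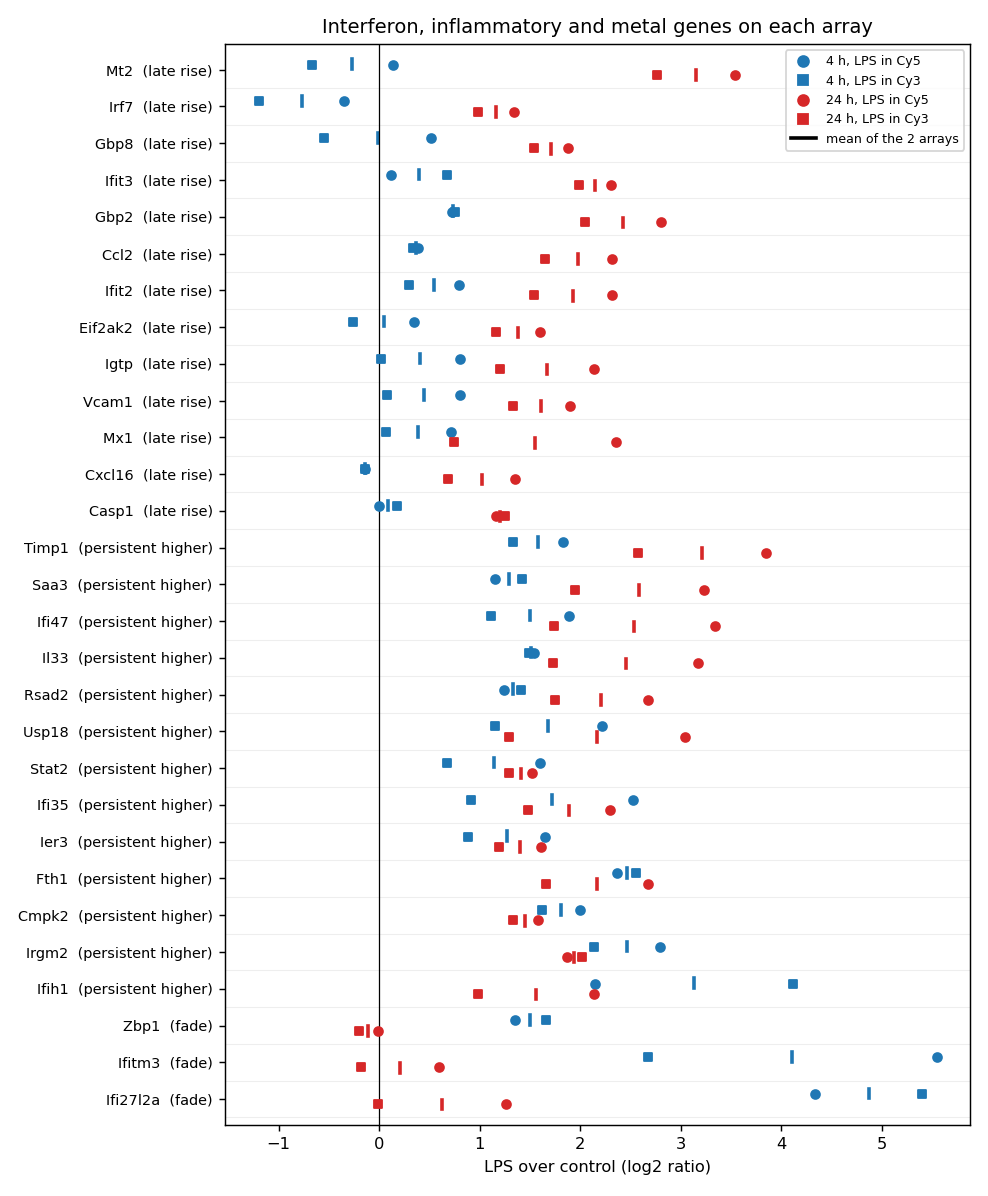
Log2 ratio of LPS over control of 29 interferon, inflammatory and metal-binding genes on each array, with 4 h in blue and 24 h in red, circles for LPS in Cy5, squares for LPS in Cy3 and short bars for the mean of the 2 arrays. In the late genes at the top the red points lie to the right of the blue ones. In the persistent genes below them both colours lie to the right of 0. In the last 3 genes the red points lie near 0, except the circle of Ifi27l2a, which is more than 2-fold above control.

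IFIT proteins bind viral RNA and restrain its translation, and 2 of the 3 genes measured were late. Ifit3 was at 0.12 and 0.67 at 4 h and at 2.31 and 1.99 at 24 h, a difference of 1.75 ± 0.61, and it kept its class in 13 of 13 alternative settings. Ifit2, the next gene on the chromosome, was at 0.80 and 0.29 and then at 2.32 and 1.55, a difference of 1.39 ± 0.19. Without the 24 h array with LPS in Cy5 the difference of Ifit2 was 0.9997 and just missed the class. Ifit1 was at 1.38 and 0.45 and then at 1.03 and 0.39, in no class.

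The ISG15 system, which attaches a ubiquitin-like protein to other proteins, was mixed. Isg15 itself was at -0.19 and 0.36 at 4 h and at 1.09 and 0.18 at 24 h, and the times overlapped. Usp18, which removes ISG15 and dampens the interferon receptor, was persistent higher, at 2.22 and 1.15 and then at 3.04 and 1.30. Ube2l6, the conjugating enzyme, was at -3.21 and -4.30 and then at 1.05 and 0.03, so both low values at 4 h had ended by 24 h. Its difference was 4.30 ± 0.05, and without the 24 h array with LPS in Cy3 it was called lower at 4 h and higher at 24 h (difference 4.80).

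Trim25, a ligase for ISG15 and ubiquitin that acts on the RNA sensor RIG-I, faded from 2.09 and 1.31 to 0.60 and 0.66. Its difference was -1.07 ± 0.60, and without the 4 h array with LPS in Cy5 it was -0.68 and not called. Herc6, the mouse ISG15 ligase, was at -0.29 and 0.03 and then at 2.04 and 0.21, with a spread too wide for a class. Over the 10 measured genes of the IFIT and ISG15 list the median moved from 0.24 to 0.67.

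The 21 measured sensors of nucleic acid and antiviral effectors had nearly the same median at both times, 0.72 and 0.71, and the sign of their median difference of 0.04 turned without the 24 h array with LPS in Cy5 (-0.22) and without the 4 h array with LPS in Cy3 (-0.12). Members went separate ways under that median. Rsad2 (viperin), an enzyme that makes a chain-ending nucleotide, was persistent higher, at 1.25 and 1.41 and then at 2.67 and 1.75. Both 24 h arrays of Rsad2 were above both 4 h arrays, and its difference of 0.88 ± 0.77 was under 2-fold. Its neighbour Cmpk2, which supplies the substrate, was at 2.0 and 1.62 and then at 1.58 and 1.34, with both 24 h arrays below both 4 h arrays and a difference of -0.35 ± 0.10.

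Ifih1 (MDA5), a sensor of long double-stranded RNA, was at 2.15 and 4.12 at 4 h and at 2.14 and 0.98 at 24 h. It was called higher at both times and lower at 24 h than at 4 h, a difference of -1.58 ± 2.21, whose error exceeded its size. Without the 24 h array with LPS in Cy5 it counted as fading (-2.15). Eif2ak2 (PKR), a kinase that halts translation on double-stranded RNA, was late, at 0.35 and -0.26 and then at 1.60 and 1.16, a difference of 1.34 ± 0.12. Mx1, a GTPase that acts against RNA viruses, was at 0.71 and 0.07 and then at 2.35 and 0.74. The lower 24 h array of Mx1 was just above the higher 4 h array, and its difference of 1.16 ± 0.68 came to 0.35 without the 24 h array with LPS in Cy5 and 0.84 without the 4 h array with LPS in Cy3, neither called. Zbp1, a sensor of unusual nucleic acid that triggers cell death, faded from 1.35 and 1.66 to -0.01 and -0.20, a difference of -1.61 ± 0.35.

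Among transcription factors of the pathway, Irf7 was late and Stat2 persistent. Irf7, which amplifies type I interferon production, was at -0.35 and -1.19 at 4 h and at 1.35 and 0.99 at 24 h, a difference of 1.94 ± 0.34. Without the 24 h array with LPS in Cy5 the mean of Irf7 at 24 h was under 2-fold (difference 1.76), and without the 4 h array with LPS in Cy5 it was called lower at 4 h and higher at 24 h (2.36). Stat2 was at 1.60 and 0.68 and then at 1.53 and 1.29, and without the 4 h array with LPS in Cy5 it was not called at 4 h (difference 0.73). Stat5a, a STAT used by cytokine receptors, recovered from -1.88 and -0.69 to -0.14 and 0.01, and without the 4 h array with LPS in Cy5 its difference was 0.63. Irf1 and Stat3 were near 0 at both times, with differences of -0.25 ± 0.11 and -0.05 ± 0.19. Over the 19 measured regulators and receptors the median was -0.16 at 4 h and 0.21 at 24 h, and 10 had both 24 h arrays above both 4 h arrays, as did 24.3% of all genes.

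Of 11 measured small interferon-induced proteins 3 faded, 1 was persistent higher and 7 were in no class, and 6.46% of all genes faded. Ifi27l2a, a small mitochondrial protein, was at 4.34 and 5.40 at 4 h and at 1.27 and -0.01 at 24 h, a difference of -4.24 ± 1.65 or 18.9-fold. It was called higher at both times without the 24 h array with LPS in Cy3 (difference -3.61). Ifitm3, which keeps viruses from leaving endosomes, was at 5.55 and 2.68 and then at 0.59 and -0.18, a difference of -3.91 ± 1.48. In these 2 genes every 4 h array exceeded every 24 h array by more than 2-fold.

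Ifi202b faded from 1.01 and 1.65 to -0.27 and 0.83, and its difference of -1.05 ± 0.32 was not called without the 4 h array with LPS in Cy3 (-0.73) or without the 24 h array with LPS in Cy5 (-0.50). Ifi35 was persistent higher, at 2.52 and 0.91 and then at 2.30 and 1.48, but not without the 4 h array with LPS in Cy5 (difference 0.98). Over the 11 measured genes of this list the median went from 0.83 to 0.28, and the median difference of -0.27 became 1.20 when arrays were centred on abundant transcripts. Genes of the Ifi200 family are close copies of each other, and an oligonucleotide may read more than 1 of them.

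Some class I histocompatibility genes, which present peptides to T cells, were called higher at 4 h alone. Of 19 measured genes of this list and of peptide loading, 4 faded, 1 was persistent higher and 14 were in no class. By the difference rule 6 were lower and 13 were not called, against 9.99% of all genes lower. The shares of all genes were 6.46% fading and 0.413% persistent higher. The list's median difference was -0.36, or 1.11 when arrays were centred on abundant transcripts. H2-Q7 was at 4.10 and 3.14 and then at -0.60 and 0.14, a difference of -3.85 ± 1.21. H2-K1 was at 5.27 and 1.89 and then at 0.09 and 0.19, and H2-D1 at 2.33 and 3.54 and then at 0.10 and 0.62. Both were called higher at 4 h and were near 0 or under 2-fold at 24 h.

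H2-T22 remained higher, at 3.76 and 2.73 and then at 1.31 and 0.84, and it counted as fading without the 24 h array with LPS in Cy5 (difference -2.41). H2-T9, singled out after its values were seen, was at 4.55 and 3.08 and then at 1.95 and 1.14. These genes are near-identical, so the oligonucleotides may not tell them apart, and the 2 oligonucleotides of H2-Q1 differed in sign. Psmb9, Tap1, Psmb8 and Tap2, the immunoproteasome subunits and peptide transporters that lie side by side, were in no class.

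Chemokines, the secreted proteins that attract leukocytes, held 2 late genes, 1 persistent gene and 1 fading gene among 35 measured. The shares of all genes were 0.781% late, 0.413% persistent higher and 6.46% fading. Ccl2, which attracts monocytes, was at 0.39 and 0.34 at 4 h and at 2.32 and 1.65 at 24 h, a difference of 1.62 ± 0.44 or 3.07-fold. Its neighbour Ccl7 was at 1.28 and 0.75 and then at 2.27 and 0.59, so its times overlapped and it was persistent higher. Ccl7 lost that class in 8 of 13 alternative settings, among them without the 4 h array with LPS in Cy5 (difference 0.68) and without the 24 h array with LPS in Cy5 (-0.43). Cxcl16, a chemokine that also binds lipids, was at -0.14 and -0.14 and then at 1.36 and 0.68, a difference of 1.16 ± 0.47 that was 0.82 and not called without the 24 h array with LPS in Cy5.

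Cxcl12, the ligand of Cxcr4, faded from 1.54 and 1.06 to -0.07 and 0.54. Its difference of -1.07 ± 0.77 was not called without the 4 h array with LPS in Cy5 (-0.83) or without the 24 h array with LPS in Cy5 (-0.77). Cxcl10 differed by 0.02 ± 0.40 and Ccl5 by -0.53 ± 0.60, both in no class. Over the 35 chemokines the median was -0.10 at 4 h and 0.17 at 24 h.

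**Figure D3:**
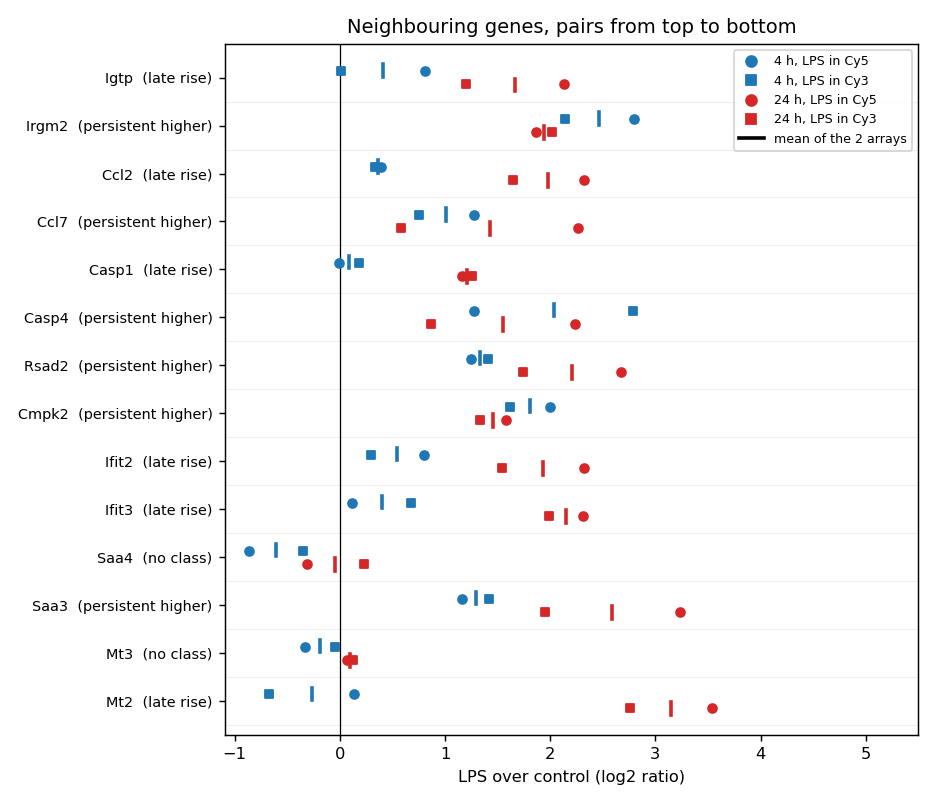
Log2 ratio of LPS over control on each array for 7 pairs of neighbouring genes, listed pair by pair from the top, with 4 h in blue, 24 h in red, circles for LPS in Cy5, squares for LPS in Cy3 and short bars for the mean of the 2 arrays. Igtp, Ccl2, Casp1 and Mt2 are near control or under 2-fold at 4 h beside a neighbour that is either high at both times (Irgm2, Ccl7, Casp4) or near 0 at both (Mt3), while Ifit2 and Ifit3 move alike.

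Of 41 measured cytokines and growth factors, Il33 was persistent higher, 4 growth factors or ligands recovered and 36 were in no class, and 4.11% of all genes recovered. Il33, an alarmin stored in endothelial nuclei, was at 1.54 and 1.49 at 4 h and at 3.18 and 1.73 at 24 h, with both 24 h arrays above both 4 h arrays and a difference of 0.94 ± 0.99. Pgf, a placental member of the VEGF family, was at -4.26 and -3.60 and then at -0.64 and 0.97. Its difference of 4.09 ± 0.67 is a 17.1-fold step from far below control to near it.

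Vegfa, the main growth factor of endothelial cells, was at -1.48 and -2.46 and then at 0.61 and 0.20, a difference of 2.37 ± 0.41. Tnfsf11 (RANKL) was at -3.51 and -3.27 and then at -0.94 and -0.51, a difference of 2.66 ± 0.14. Fgf2 was at -0.79 and -1.83 and then at 0.21 and -0.25, and its difference of 1.29 ± 0.40 was 0.77 without the 4 h array with LPS in Cy3. In these 4 genes both 24 h arrays were above both 4 h arrays, which the recovery class demands. Il6 was at -0.77 and -0.59 and then at -1.30 and 0.30, in no class.

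Vcam1, which holds leukocytes through their integrins, was late, at 0.80 and 0.08 at 4 h and at 1.90 and 1.33 at 24 h. Its difference of 1.17 ± 0.11 was 0.81 without the 4 h array with LPS in Cy3 and 0.88 without the 24 h array with LPS in Cy5, both not called. The selectins Sele and Selp, which slow leukocytes on the vessel wall, were within 1.5-fold of control on every array and differed by -0.55 ± 0.19 and 0.32 ± 0.16. Itgb1, the common chain of many matrix receptors, faded from 4.44 and 3.10 to 0.64 and -0.01, and F11r, a junction protein, from 3.23 and 1.13 to 0.09 and -0.17. Over 25 measured genes of this list the median difference was 0.05.

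Of 18 measured NF-kB subunits and feedback genes 15 were in no class, 1 faded, 1 was persistent higher and 1 was called in opposite ways at the 2 times. The 1 fading gene was 5.56% of the list, near the 6.46% of all genes. Persistent higher were 0.413% of all genes, and 0.126% were called in opposite ways. Tnip1, a partner of A20 that restrains NF-kB, was at -1.82 and -1.81 at 4 h and at 1.75 and 1.33 at 24 h. It was called lower at 4 h and higher at 24 h, with a difference of 3.36 ± 0.30 or 10.2-fold. Ier3, an early response gene, was persistent higher, at 1.65 and 0.89 and then at 1.61 and 1.19, but was not called at 4 h without the 4 h array with LPS in Cy5 (difference 0.51).

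Nfkbiz, a nuclear inhibitor protein, faded from 1.28 and 1.01 to -0.24 and 0.44. It kept that class in 6 of 13 alternative settings and lost it, among others, without the 4 h array with LPS in Cy5 (difference -0.90) and without the 24 h array with LPS in Cy5 (-0.70). Nfkbia, the first inhibitor made after NF-kB activation, was at 1.26 and 0.66 and then at 0.13 and 0.27, with both 24 h arrays below both 4 h arrays and a difference of -0.76 ± 0.53 under 2-fold. Tnfaip3 (A20) was at -0.81 and -1.01 and then at -1.82 and -0.26, in no class. Over this list the median difference was 0.11.

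Of the sensing pathway itself, 1 of 25 measured genes faded and 2 recovered, against 6.46% and 4.11% of all genes. Ikbkb, a kinase that releases NF-kB, faded from 1.30 and 1.22 to 0.08 and -0.87, a difference of -1.66 ± 0.62. Mapk8 (JNK1) recovered from -1.83 and -2.40 to -0.33 and 0.46. Myd88 recovered from -0.86 and -1.25 to 0.19 and 0.18, and without the 4 h array with LPS in Cy3 it was not called (difference 1.04). Tlr4 was at 1.94 and -0.43 and then at 0.46 and 1.58, so its arrays disagreed at both times. Cd14 differed by -0.78 ± 0.92 and Ly96 by -0.02 ± 0.18.

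Immediate early genes, which respond within minutes to hours, held 3 fading genes and no other class among 27 measured, against 6.46% of all genes fading. Fos was at 2.07 and 1.68 at 4 h and at -0.14 and 0.03 at 24 h, a difference of -1.93 ± 0.40. Dusp6, a phosphatase of ERK, faded from 2.57 and 0.90 to 0.47 and -0.06, and Dusp2 from 2.25 and 1.17 to 0.53 and 0.38. Without the 4 h array with LPS in Cy5 their differences were -0.69 and -0.72, not called, and the 2 oligonucleotides of Dusp2 differed in sign.

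The largest difference of any late gene in the lists was that of Mt2, a metallothionein that binds zinc and copper. It was at 0.13 and -0.67 at 4 h and at 3.54 and 2.76 at 24 h, a difference of 3.42 ± 0.02 or 10.7-fold. Its neighbour Mt3 was in no class. Fth1, the heavy chain of the iron store ferritin, was persistent higher, at 2.36 and 2.56 and then at 2.67 and 1.66. Ftl1, the light chain, was at -0.89 and -1.31 and then at -0.30 and 0.43 and recovered, a difference of 1.17 ± 0.82. It was in no class without the 4 h array with LPS in Cy3 (difference 0.95) or the 24 h array with LPS in Cy3 (0.80). The 2 chains of ferritin were thus on opposite sides of control at 4 h.

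Slc40a1 (ferroportin), the cell's iron exporter, faded from 2.51 and 1.02 to -0.41 and -1.24, a difference of -2.60 ± 0.47, and without the 24 h array with LPS in Cy5 it was called lower at 24 h (-3.01). The antioxidant enzymes Prdx2, Txn1 and Sod1 also faded, with differences of -2.74 ± 1.68, -1.26 ± 0.37 and -1.02 ± 0.05, of which those of Txn1 and Sod1 turned to 0.21 and 0.45 when arrays were centred on abundant transcripts. Txn1 was not called without the 24 h array with LPS in Cy3 (difference -0.85), nor Sod1 without that array (-0.67) or without the 4 h array with LPS in Cy5 (-0.71). Over 22 measured genes of this list 4 faded, 1 was late, 1 recovered and 1 was persistent higher. The shares of all genes were, in that order, 6.46%, 0.781%, 4.11% and 0.413%.

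Timp1, an inhibitor of matrix proteases, and Saa3, an acute phase protein, were the 2 persistent genes that were also higher at 24 h than at 4 h by the difference rule. Timp1 was at 1.83 and 1.34 and then at 3.85 and 2.58, a difference of 1.63 ± 0.55. Saa3 was at 1.16 and 1.42 and then at 3.23 and 1.95, a difference of 1.30 ± 1.10. Its neighbour Saa4 was in no class.

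Other genes of the matrix list faded. Timp3 faded from 4.16 and 2.45 to -0.23 and -0.34, and Lox, which crosslinks collagen, from 3.52 and 3.33 to -0.58 and 0.05. Col3a1, Col6a1, Col5a2 and Col1a1, collagen chains, faded too, with differences from -2.54 to -1.49. Without the 4 h array with LPS in Cy5, Col3a1 (difference -0.95) and Col5a2 (-0.88) were not called. Col1a1 was not called without the 24 h array with LPS in Cy5 (-0.65) and was called lower at 24 h without the one with LPS in Cy3 (-2.32). Sparc, a matrix glycoprotein, was at 5.09 and 2.65 and then at 1.32 and 1.04, persistent higher but lower by -2.69 ± 1.53. Of 36 measured genes 8 faded, 2 were persistent higher, 1, the proteoglycan Lum, recovered and 25 were in no class, and 13 had a difference above 0. The shares of all genes were 6.46% fading, 0.413% persistent higher and 4.11% recovering. The median difference of -0.38 became 1.09 when arrays were centred on abundant transcripts.

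Inflammatory caspases were another pair of neighbours with unlike times. Casp1, which matures interleukin-1, was late, at -0.01 and 0.18 at 4 h and at 1.16 and 1.26 at 24 h, a difference of 1.12 ± 0.06. Casp4 (caspase-11), which senses LPS inside the cell, was at 1.28 and 2.78 and then at 2.23 and 0.86 and was persistent higher. Its times overlapped, and without the 24 h array with LPS in Cy5 it counted as fading (difference -1.17). Casp2 recovered from -1.34 and -1.80 to 0.06 and 0.90.

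Housekeeping families held many of the fading genes. Cytosolic ribosomal proteins, the protein part of the translating ribosome, went from a median of 2.10 to one of 0.26 over 65 measured genes. Of these 36 faded and 2 were persistent higher, Rpl12 and Rplp1, and by the difference rule 38 were lower and 3 higher at 24 h. The shares of all genes were 6.46% fading, 0.413% persistent higher, 9.99% lower and 8.23% higher. Rpl12 and Rplp1 counted as fading without the 24 h array with LPS in Cy5 (differences -1.41 and -3.42). Rpl6 was at 6.14 and 4.39 at 4 h and at -0.01 and 0.17 at 24 h, a difference of -5.19 ± 1.37 or 36.5-fold. Rps3 was at 6.30 and 3.40 and then at -0.05 and 0.52. Rpl38 was at 3.77 and 3.96 and then at 0.32 and 0.53, a difference of -3.44 ± 0.01.

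The median difference was -1.97 over the 40 large-subunit genes and -1.51 over the 25 small-subunit genes, and it was -0.50 and -0.04 when arrays were centred on abundant transcripts. Mitochondrial ribosomal proteins did not share the pattern. Over 62 measured genes the median was 0.17 and then 0.11, with 4 fading and 1 recovering. The 4 fading genes were 6.45% of the list, near the 6.46% of all genes, and 4.11% of all genes recovered. Many ribosomal protein genes have processed pseudogenes of near-identical sequence, which an oligonucleotide may also read.

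**Figure D4:**
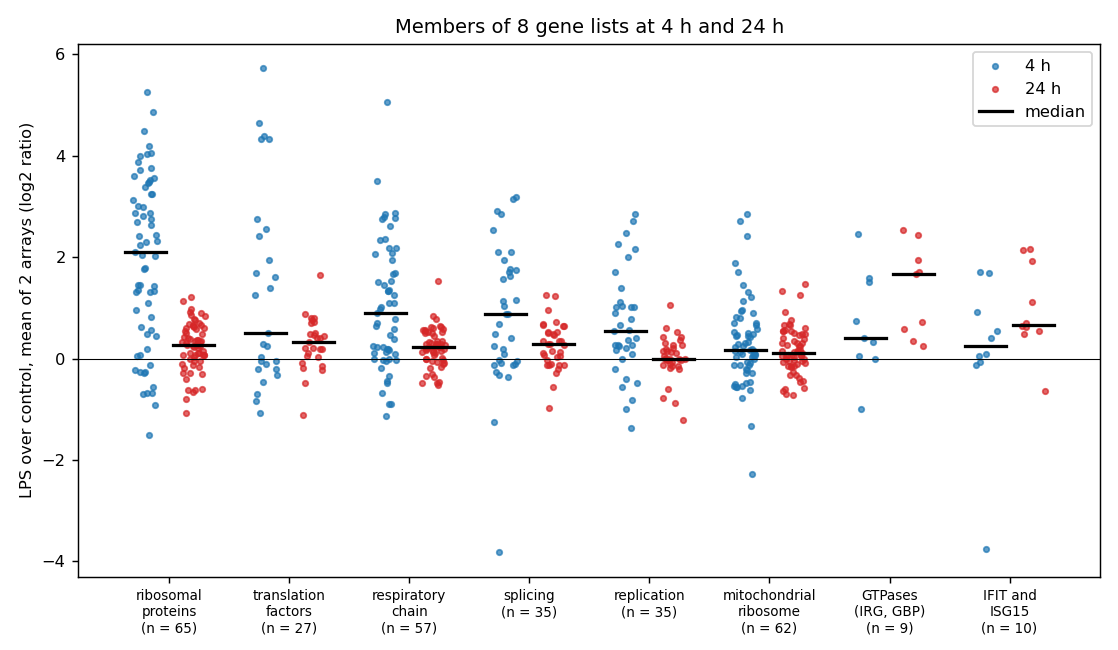
Mean log2 ratio of LPS over control of each member of 8 gene lists at 4 h (blue) and 24 h (red), each point 1 gene, with the median as a black bar and a small sideways scatter for legibility. Ribosomal proteins spread from below 0 to above 5 at 4 h and close in around 0 at 24 h, mitochondrial ribosomal proteins stay around 0 at both times, and the GTPases at the right are higher at 24 h.

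Of 27 translation factors 9 faded and 1 recovered, against 6.46% and 4.11% of all genes. Pabpc1, the poly(A)-binding protein, was at 6.74 and 4.72 and then at 0.70 and 0.23, a difference of -5.26 ± 1.09. Eef1a1, the elongation factor that delivers tRNA, was at 5.21 and 3.45 and then at 0.63 and 0.01. The median difference over the list was -0.48, or 0.99 when arrays were centred on abundant transcripts.

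Of 57 subunits of the respiratory chain and ATP synthase 21 faded, against 6.46% of all genes. The list's median went from 0.91 to 0.23. Atp5b, the catalytic subunit of ATP synthase, was at 6.92 and 3.20 and then at -0.08 and -0.08, a difference of -5.14 ± 2.63. Uqcrc1, of complex III, was at 2.13 and 2.01 and then at 0.27 and 0.12, a difference of -1.87 ± 0.02. The median difference of -0.68 became 0.79 when arrays were centred on abundant transcripts.

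Of 35 splicing factors 12 faded, 2 recovered and 1, U2af1, was persistent higher, against 6.46%, 4.11% and 0.413% of all genes. U2af1 was in no class without the 4 h array with LPS in Cy5 (difference 0.27) or the 24 h array with LPS in Cy5 (-0.49). Srsf2, which selects exons, was at 3.09 and 2.63 and then at 0.11 and -0.16, a difference of -2.89 ± 0.13. Snrnp48 and Hnrnpl recovered, the first from -3.52 and -4.13 to 0.09 and 2.41. Snrnp48 was called higher at 24 h without the 24 h array with LPS in Cy5 (difference 6.23). The median difference was -0.81, or 0.66 when arrays were centred on abundant transcripts.

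Genes of growth and division also held fading genes, beside the 6.46% of all genes. Of 35 replication genes 9 faded and 2 recovered, among the fading ones the replicative helicase subunits Mcm2, Mcm4, Mcm5 and Mcm6 with differences from -2.88 to -2.07. Mcm4 was at 2.88 and 2.53 and then at 0.51 and 0.10. Cdc45, which activates that helicase, was at 1.38 and 1.40 and then at -1.77 and -0.67, called higher at 4 h and lower at 24 h, and without the 24 h array with LPS in Cy5 it counted as fading (difference -2.06). Cdk4, a kinase of the G1 phase, was at 3.58 and 3.38 and then at 0.56 and 0.12, a difference of -3.14 ± 0.18. Of 34 cyclins and mitotic regulators 8 faded and 2 recovered, among the latter the inhibitor Cdkn1b. Cdkn1b was not called without the 4 h array with LPS in Cy5 (difference 0.91) or the 24 h array with LPS in Cy5 (0.99).

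Further lists behaved alike in sign and differed in size. Their counts of fading genes stand beside the 6.46% of all genes. Of 35 genes of actin and its partners 10 faded, and Arpc5, a subunit of the Arp2/3 complex that branches actin, was persistent higher, at 4.45 and 3.67 and then at 2.53 and 0.85. Without the 24 h array with LPS in Cy5, Arpc5 counted as fading (difference -3.21). Of 17 glycolytic enzymes 6 faded, among them Gapdh, at 5.10 and 3.68 and then at -0.52 and 0.04. Of 32 proteasome subunits 8 faded, of 25 heat shock proteins and chaperonins 7, and of 15 histone genes 5. The histone variant H3f3b was at 7.16 and 4.41 and then at 0.28 and 0.23, a difference of -5.53 ± 1.91. The median differences were -0.87 for actin, -0.65 for glycolysis, -0.30 for the proteasome, -0.65 for heat shock proteins and -0.55 for histones, and every one of these 5 was above 0, from 0.60 to 1.17, when arrays were centred on abundant transcripts.

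Transcripts of many of these families are known to be plentiful in most cells, and abundance was not measured here. For comparison, 42 transcripts that are plentiful in most cells and lie outside translation, some of them also in lists above, had a median of 1.78 at 4 h, which fell to 0.16 at 24 h, and 23 of them faded. Its member Ppia, a cyclophilin, was at 6.69 and 4.83 and then at 0.43 and 0.08. A list of 44 transcripts of unrelated tissues, such as liver and pancreas, had medians of -0.20 and 0.10, and 1 gene faded. Of all genes 6.46% faded. The part of transcript abundance in the fading of these families was not tested.

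**Figure D5:**
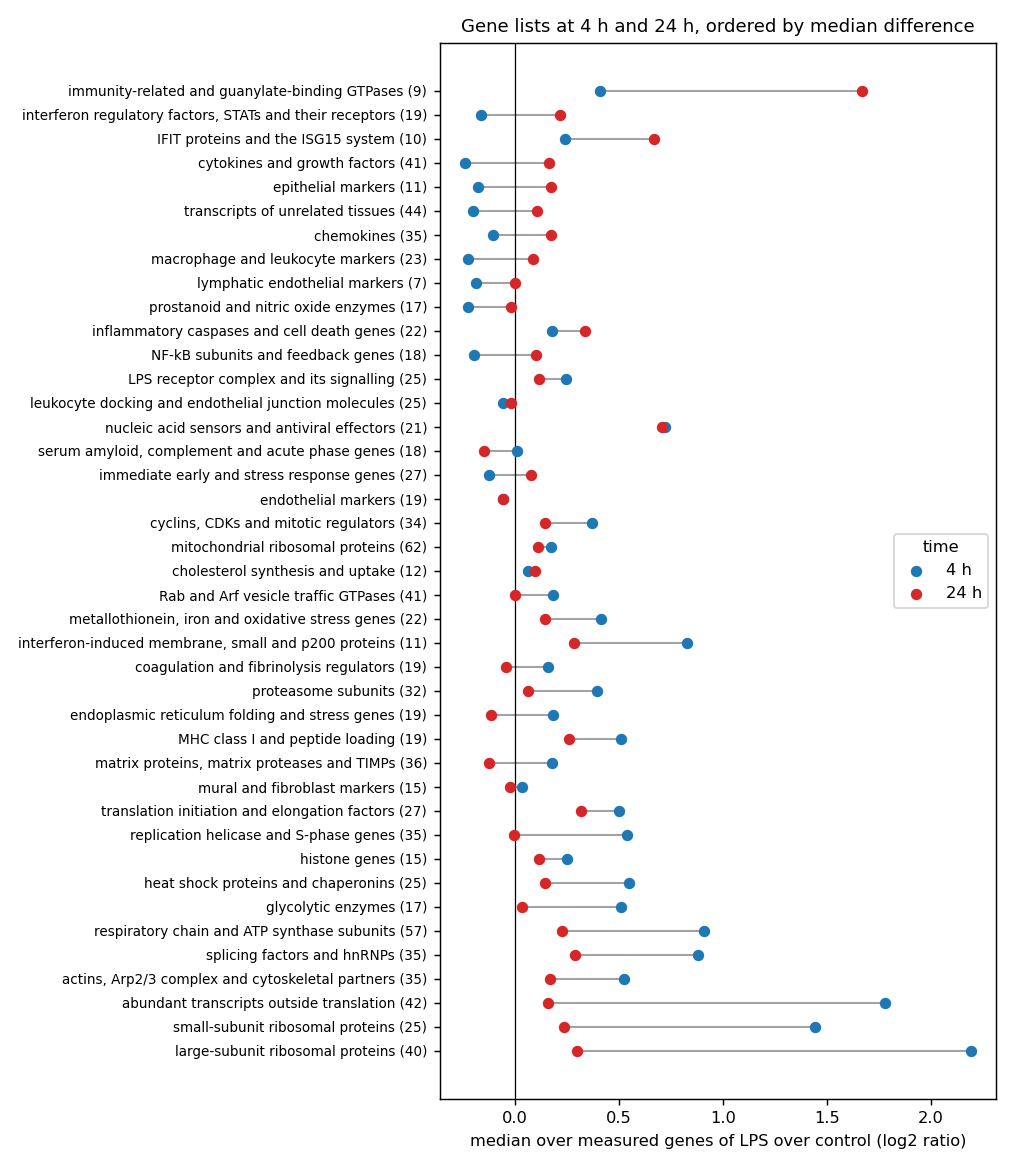
Median log2 ratio of LPS over control at 4 h (blue) and 24 h (red) for 41 gene lists, with the number of measured genes in brackets and a line joining the 2 times, ordered from the lists highest at 24 h relative to 4 h at the top. The GTPases lead at the top with 0.41 and 1.67, and the ribosomal and abundant lists lie at the bottom, far from 0 at 4 h only. When arrays were centred on abundant transcripts the lists with a difference below 0 came out above 0, except the 2 ribosomal lists and the abundant list.

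Markers of cell types were looked at in the same way. Of 19 measured endothelial markers 2 recovered, against 4.11% of all genes, and no other was in a class. The medians were -0.06 at both times. Pecam1, the junctional protein CD31, differed by 0.38 ± 0.02, Kdr, the VEGF receptor, by -0.31 ± 0.02 and Tek, the angiopoietin receptor, by -0.28 ± 0.10. The 2 recovering markers were Cdh5 (VE-cadherin), whose 2 oligonucleotides differed in sign, and Plvap. Plvap was in no class without the 4 h array with LPS in Cy5 (difference 0.54) or the 24 h array with LPS in Cy5 (0.96), and its difference was -0.94 with the first spot of each oligonucleotide alone. Ratios say nothing of a marker's level, so the identity of the line was not checked here.

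Of 23 leukocyte markers 1, Coro1a, was late, at -0.17 and 0.24 and then at 0.94 and 1.15. Its difference of 1.02 ± 0.14 was 0.81 without the 4 h array with LPS in Cy5 and 0.91 without the 24 h array with LPS in Cy3. Mpo, a granule enzyme of neutrophils, faded with a difference of -1.82 ± 1.78, and Elane, another, recovered with one of 1.44 ± 0.20. By the difference rule 5 leukocyte markers (21.7%) were higher and 1 (4.35%) was lower, against 8.23% and 9.99% of all genes. The same rule called 3 of the 19 endothelial markers (15.8%) and 2 of 7 lymphatic endothelial markers higher, and none of either lower. The medians of the leukocyte list were -0.22 at 4 h and 0.09 at 24 h. Of 15 mural and fibroblast markers 4 faded and 1 recovered, against 6.46% and 4.11% of all genes. Pdgfra was persistent higher but counted as fading without the 24 h array with LPS in Cy5 (difference -1.15).

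Outside the lists, the late genes with the largest differences varied in how far they rested on single arrays. Ttpal was at 0.21 and -1.51 at 4 h and at 3.86 and 4.95 at 24 h, a difference of 5.06 ± 1.99, and without the 4 h array with LPS in Cy5 it was called lower at 4 h (5.92). Gpr165 was at 0.25 and -0.73 and then at 2.85 and 3.52. Atp6v1c2, a subunit of the proton pump of acid vesicles, was at -0.29 and 0.06 and then at 3.21 and 2.0. Thoc3 was at -6.84 and 0.79 and then at 2.90 and 2.26, so that its difference of 5.60 ± 5.84 came mostly from 1 array. Tmem121b (difference 4.129), Trafd1 (3.596) and Ppargc1a (2.702) were also late. Without the 24 h array with LPS in Cy3 all of them were in no class (differences 2.002, 1.515 and 1.12). Without the 4 h array with LPS in Cy5, Tmem121b and Trafd1 were called lower at 4 h (differences 5.227 and 4.05). Of the late genes 17.2% were in a list, of the persistent higher genes 54.3%, of the fading genes 25.2% and of the recovering genes 6.99%, against 9.16% of all genes.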

How the data were processed

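Cultured SVEC cells were measured on 4 two-colour long-oligonucleotide arrays, from amplified RNA per the labels. The deposited values are log2 ratios of the 2 dyes, as 2 raised to their size lies on steps of 0.01. The sources used here do not give the scanner, background correction or normalization. Without intensities no filter on faint spots was made, and the number of arrays limits the precision.

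Dye-reversal columns were turned, each column was centred on its median, and spots with exactly 1 symbol (24344, with 98 holding several symbols and 8006 unnamed) were averaged per gene from 12131 oligonucleotides, mostly 1 a gene. Symbols come from the platform annotation. Numbers of arrays, not depth, set the error: differences carry the SD of the 2 dye orientations and no p-value. The call rules are those stated with the counts. They were run on simulated arrays with independent noise and planted differences above the 2-fold threshold. That run does not give their error rate on these arrays.

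The genes, classes and 41 gene lists were chosen with earlier results of these data known. Named are the 8 (late fall and persistent lower: 5) leading genes of each class, up to 6 members of each list by size of difference, every list member in a class, and fixed LPS genes. The 14 crossing genes, H2-T9, Isg15, Ifit1, Cmpk2 and some neighbours were chosen after values were seen. Alternatives changed the scaling, centring, spots, thresholds, array demands and arrays, and ran limma 3.58.1 (R 4.3.3). Tables were made with pandas 2.3.3 and figures with matplotlib 3.10.9.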

Additional observations from a re-analysis of the deposited data

Results flagged for a closer look

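In 17 of the named genes both arrays of a time lay at least 1.5-fold on one side of control and both arrays of the other time at least 1.5-fold on the opposite side. These differences between the times were not tested. Over all 11138 genes there were 35 such genes (0.314%).

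Above control at 4 h and below it at 24 h were Ifna9, an interferon alpha gene with close copies (difference -4.72), Nbr1, an autophagy receptor (-4.07), the uncharacterised 2810051F02Rik (-3.94), Actg2, a smooth muscle actin (-3.93), Plagl1, a zinc finger protein (-3.89), and Tomm20, a mitochondrial import receptor (-3.85). With smaller differences the same held for Arl1 (-3.56), 2700049A03Rik (-3.22), Naa38 (-3.16), Opn4 (-3.15), the matrix proteoglycan Bgn (-3.02) and Cdc45 (-2.61).

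Below control at 4 h and above it at 24 h were Tnip1 (difference 3.36), the kinase Csnk1d (3.32), Madd (3.01), the retinoic acid carrier Crabp2 (2.97) and the splicing regulator Hnrnpl (1.97). Arl1, Bgn and Hnrnpl missed the 2-fold rule at 24 h and counted as fading or recovering.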

How the results depend on the processing

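Each choice was changed alone. Genes higher at 24 h than at 4 h, 917, ranged with an array left out from 923 to 1576 and genes lower, 1113, from 1405 to 1582. With a 1.5-fold threshold they were 1711 and 1819, with a 3-fold threshold 378 and 585, and with arrays centred on abundant transcripts 7602 and 167. With that centring the median over genes was -1.64 at 4 h and -0.15 at 24 h. With limma on the 4 arrays taken as independent, which the labels do not state, 0 genes were higher and 0 lower at an adjusted p of 0.05 (lowest adjusted p 0.17), and 575 and 751 had an unadjusted p under 0.05. With the dye orientation as replicate block there were 0 and 0 (lowest adjusted p 0.265), and 648 and 857 at an unadjusted p under 0.05. The shared numbers mark only the dye orientation and pair no samples.

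Late genes (87) were 147 with arrays scaled to 1 spread, 202 with quantile normalization, 44 with abundant centring, 155 at 1.5-fold, 40 at 3-fold, 203 by the mean alone and 80 to 543 with an array left out. Late falls (42) were, in that order, 96, 74, 16, 89, 6, 134 and 38 to 494, and 64 with the first spot of each oligonucleotide. Fading genes (719) were 442 with quantile normalization, 120 with abundant centring, 432 at 3-fold and 622 to 1143 with an array left out. Recovering genes (458) were 6956 with abundant centring, 224 at 3-fold and 399 to 767 with an array left out. Persistent higher genes (46) were 73 with quantile normalization, 3 with abundant centring, 87 at 1.5-fold, 6 at 3-fold, 92 by the mean alone and 57 to 141 with an array left out. Persistent lower genes (8) were 14 with 1 spread, 16 with quantile normalization, 141 with abundant centring, 26 at 1.5-fold, 0 at 3-fold, 42 by the mean alone and 13 to 83 with an array left out. Genes called in opposite ways (14) were 54 with abundant centring, 35 at 1.5-fold, 3 at 3-fold, 59 by the mean alone and 23 to 55 with an array left out. The counts with a demand within each dye orientation and with ratios of exactly 1 as not measured stayed within 1.5 times for every class.

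Centring on abundant transcripts subtracted a constant from each array, which raised every difference by the same amount. That centring thus turned above 0 each called difference below 0 that was smaller in size than this amount. Among named genes whose difference was called, it turned 47 from below to above 0: Acta2 (0.38), Arf4 (0.30), Atp5a1 (0.25), Atp5o (0.43), Ccna2 (0.26), Ccnb2 (0.18), Cct3 (0.038), Cct5 (0.11), Cct6a (0.044), Cox7a2 (0.23), Cox7c (0.33), Cxcl12 (0.40), Dusp2 (0.22), Eif4a1 (0.33), Ern1 (0.28), Fap (0.33), Gpx1 (0.33), Hnrnpm (0.34), Hspd1 (0.43), Ifi202b (0.42), Irf2 (0.22), Ltb (0.052), Mmp14 (0.20), Myl6 (0.17), Nfkbie (0.42), Nfkbiz (0.43), Parp14 (0.12), Pdgfrl (0.036), Pole (0.32), Prim1 (0.031), Psmb5 (0.062), Psmc3 (0.37), Rpl12 (0.32), Rpl19 (0.41), Rpl36a (0.13), Rps14 (0.41), Rps27l (0.29), Rrm1 (0.068), Snrpa (0.40), Snrpd2 (0.35), Snrpg (0.16), Sod1 (0.45), Sqle (0.22), Trim25 (0.39), Tuba1a (0.047), Txn1 (0.21) and Tyms (0.34). Quantile normalization turned Hspd1 (0.00082), and the first spot alone turned Plvap (-0.94) and Rpl36a (0.44). The cause of the turns under quantile normalization and with the first spot was not tested.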

Other observations

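Spots without a single gene symbol were compared over time in the same way. Of 8104 such spots, 561 (6.92%) were higher and 1021 (12.6%) lower at 24 h than at 4 h by the difference rule, against 8.82% and 10.5% of named spots. Among them 88 were late, 13 persistent higher and 361 fading. Where 2 adjacent spots carried 1 oligonucleotide (12172 pairs), their correlation was 0.67 for the 4 h mean, 0.36 for the 24 h mean and 0.54 for the difference.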
